A study of Rattus norvegicus with 60 samples.

Results

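The genes described here are 8 targets of the nuclear receptor PPARA that serve the use of fatty acids: Cd36, Aqp7, Cpt1a, Ehhadh, Cyp4a1, Acot1, Pdk4 and Angptl4. They were chosen by name, with earlier results of these data known. Each was represented by the probe set that is annotated to its symbol alone and has the highest mean over the 60 arrays, which covers 8 of the 14217 genes represented in the same way. Cpt1a and Pdk4 each have a second probe set of their own. Probe sets annotated to several symbols, such as those shared with Acot2 or with a CD36-like gene, were left out.

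Liver RNA of male F344/N rats, 5 to 6 weeks old at the start, was measured on Affymetrix 3′ expression arrays after 5 consecutive days of dosing by gavage. The chemicals were N,N-dimethyl-p-toluidine, called DMPT, and p-toluidine. Both are aromatic amines, and p-toluidine lacks the methyl groups that DMPT carries on its nitrogen. Each chemical had its own group given the corn oil vehicle alone at 2.5 ml/kg and 5 groups dosed daily in that vehicle at 120, 60, 20, 6 or 1 mg/kg. There were 5 arrays in each of the 12 groups, and no genetic change is labelled in any. The labels number the arrays but do not tie them to separate animals, so p-values reflect only the spread among arrays, which may be technical.

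PPARA is a receptor for fatty acids and for the drugs called fibrates. With its partner RXR it binds response elements built as direct repeats of AGGTCA with a 1-base spacer, and in rat liver it is known for raising the genes of peroxisomal, mitochondrial and microsomal fatty acid oxidation in fasting. Several of its targets also answer to other receptors, to insulin or to glucocorticoids, so a change in a target does not identify the receptor.

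The promoters of Cd36 and Acot1 are shown because these genes had the largest rises at the highest dose of each chemical. That of Ehhadh is shown because it holds the only loose match to the response element in the 6 member windows. This match has 3 mismatches, a quality that 24.9% of all windows reached. The RefSeq table of build GRCr8 gives 6 of the 8 members a window from 250 bases before to 50 bases after a transcript start. Capitals mark a match, on either strand, to AGGTCA followed by any base and a second AGGTCA, with at most 3 mismatches among the 12 fixed bases. The search for a single AGGTCA overlaps this pattern. The windows are Cd36 on the plus strand at chr4:18246332-18246631, which lies inside the annotated span of the gene, Acot1 on the plus strand at chr6:109367024-109367323, and Ehhadh on the plus strand at chr11:92746159-92746458.
Cd36: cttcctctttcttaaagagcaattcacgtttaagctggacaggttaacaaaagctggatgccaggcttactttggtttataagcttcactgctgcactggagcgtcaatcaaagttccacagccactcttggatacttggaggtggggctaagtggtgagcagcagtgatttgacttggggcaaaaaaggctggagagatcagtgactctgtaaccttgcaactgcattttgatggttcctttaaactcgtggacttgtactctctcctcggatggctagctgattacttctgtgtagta
Acot1: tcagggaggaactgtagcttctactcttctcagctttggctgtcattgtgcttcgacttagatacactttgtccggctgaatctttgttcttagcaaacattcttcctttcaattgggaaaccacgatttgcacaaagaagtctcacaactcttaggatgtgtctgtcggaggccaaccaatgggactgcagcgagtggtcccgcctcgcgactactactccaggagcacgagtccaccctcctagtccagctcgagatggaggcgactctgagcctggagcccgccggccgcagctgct
Ehhadh: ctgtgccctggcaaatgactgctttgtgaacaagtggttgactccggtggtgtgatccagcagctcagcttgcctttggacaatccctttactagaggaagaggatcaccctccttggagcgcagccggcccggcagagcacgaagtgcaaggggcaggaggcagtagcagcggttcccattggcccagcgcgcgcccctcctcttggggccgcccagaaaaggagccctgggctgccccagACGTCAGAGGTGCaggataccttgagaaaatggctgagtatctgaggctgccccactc
The match in Ehhadh starts 8 bases before the transcript start, lies on the plus strand and has 3 mismatches. A match of this quality was found in 1 of the 6 member windows and in 24.9% of the 33469 windows of the same length. No member window held an exact AGGTCA on either strand, which 16.2% of all windows held. The windows of Cpt1a, Pdk4 and Angptl4 also held neither pattern, which says only that these letters are absent from these windows. Aqp7 and Cyp4a1 were not covered.

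The deposited values were taken as log2 expression, and every fold given here depends on that. Array medians ran from 3.53 to 3.61 for DMPT and from 2.73 to 2.81 for p-toluidine, so levels were compared only within a chemical. Correlations between arrays of a group ran from 0.990 to 0.996. In 5 of the 30 DMPT arrays, and in 0 of the 30 p-toluidine arrays, the spread of values was narrow: 6 mg/kg replicate 3, 60 mg/kg replicates 3 and 5, and 120 mg/kg replicates 2 and 5. The gap between the 3′ and the 5′ probe sets of beta-actin, which widens as RNA degrades, was 1.48 ± 0.15 (log2, SD) in DMPT vehicle and 1.28 ± 0.08 at 120 mg/kg. For p-toluidine it was 1.80 ± 0.15 in vehicle and 1.52 ± 0.09 at 120 mg/kg. The vehicle groups had the larger gap with both chemicals. Its part in a result was not tested except where a value with this gap as a covariate is given. Values carry no read depth, and 5 arrays per group limit the precision. In bulk liver RNA, fewer cells of a type and less RNA per cell cannot be told apart.

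From 20 mg/kg upward some of the 8 members were called higher, and which of them were called varied with the dose and the chemical. Changes of the members were not tested against each other. Calls rest on limma with p-values adjusted over all 31042 probe sets and a threshold of 0.05. With DMPT, 3 of 8 members rose at 20 mg/kg (Aqp7, Cpt1a and Ehhadh), where 2.61% of all probe sets were called (1.56% higher, 1.05% lower). At 60 mg/kg 3 rose (Aqp7, Cpt1a and Pdk4), with 5.2% of probe sets called (1.93% higher, 3.26% lower), and at 120 mg/kg 4 rose (Cd36, Aqp7, Acot1 and Pdk4), with 9.8% called (4.27% higher, 5.53% lower). With p-toluidine, Ehhadh alone rose at 20 mg/kg (0.786% of probe sets called, 0.483% higher and 0.303% lower), and Cd36, Aqp7 and Ehhadh rose at 60 mg/kg (4.51% called, 2.12% higher and 2.39% lower). At 120 mg/kg of p-toluidine Cd36, Aqp7, Ehhadh and Acot1 rose and Cyp4a1 fell (10.7% called, 5.68% higher and 5.07% lower). Angptl4 was not called at any dose of either chemical. Of the 14217 genes represented by 1 probe set as the members are, larger shares were called than of all probe sets. They were 3.33%, 7.31% and 12.7% at 20, 60 and 120 mg/kg of DMPT and 1.08%, 6.6% and 14.8% with p-toluidine.

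At 1 and 6 mg/kg limma called 0 members with either chemical, where 0% and 0.168% of probe sets were called with DMPT and 0% at both doses with p-toluidine. At an unadjusted p below 0.05 there were 3 members at 6 mg/kg of DMPT (Aqp7, Cpt1a and Ehhadh) and 0 in the other 3 of these comparisons. Of the 31042 probe sets 2717 passed that unadjusted threshold at 6 mg/kg of DMPT, 1643 at 1 mg/kg of DMPT, and 1992 and 2557 at 1 and 6 mg/kg of p-toluidine. The median log2 change over the 8 members was 0.33, 0.57 and 0.50 at 20, 60 and 120 mg/kg of DMPT, beside −0.01, 0.00 and 0.00 over all probe sets. For p-toluidine the medians were 0.30, 0.64 and 0.46, beside 0.00 over all probe sets at each of these doses. Of the members, 7 had a positive change at each of these doses of DMPT, and 6, 7 and 6 did with p-toluidine.

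**Figure D1:**
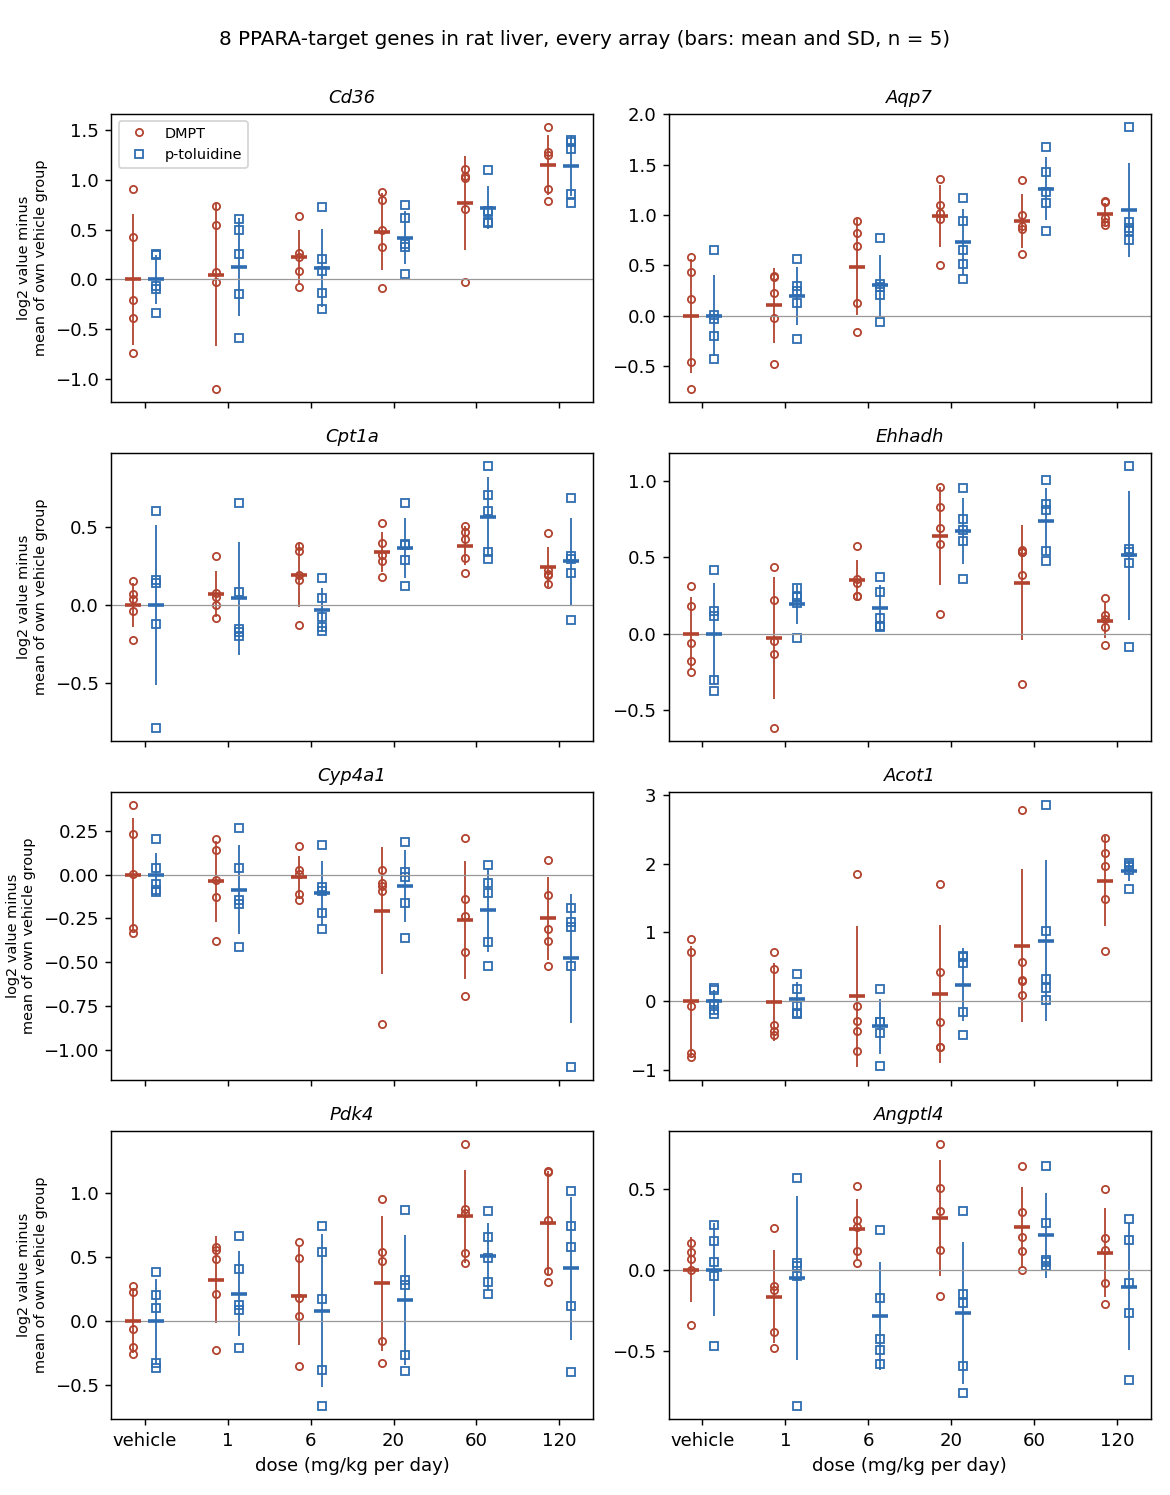
Every array's log2 value minus the mean of its own vehicle group (y axis) against the dose in mg/kg per day (x axis, equal steps) for the 8 genes, with circles for DMPT, squares for p-toluidine and bars for mean and SD of 5 arrays. Cd36 and Acot1 are highest at 120 mg/kg with both chemicals, Aqp7 reaches its level by 60 mg/kg, and Ehhadh is higher at 20 mg/kg (0.64) than at 120 mg/kg (0.09) of DMPT.

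Cd36, a scavenger receptor that takes up long-chain fatty acids, rose about 2.2-fold at the highest dose of each chemical. In the DMPT vehicle group its log2 values were 5.74, 6.08, 6.27, 6.89 and 7.38, and at 120 mg/kg they were 7.26, 7.38, 7.72, 7.75 and 8.01. The lowest dosed array lay below the highest vehicle array, so the groups overlapped. The change was 1.15 ± 0.28 (SE, 2.22-fold, limma adjusted p = 0.00630). Between these the means were 6.52 ± 0.71, 6.70 ± 0.27, 6.95 ± 0.39 and 7.24 ± 0.47 (SD) in order of dose, an increase at each step of which none was called by itself. The vehicle arrays spanned more than the change at 60 mg/kg, which was 0.77 ± 0.28 (limma adjusted p = 0.113) and was called without vehicle replicate 5 (adjusted p = 0.0314) or without 60 mg/kg replicate 5 (adjusted p = 0.0440).

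In the p-toluidine vehicle group Cd36 values were 5.67, 5.91, 5.94, 6.25 and 6.26. At 60 mg/kg they were 6.57, 6.58, 6.68, 6.69 and 7.10, and at 120 mg/kg 6.78, 6.87, 7.32, 7.38 and 7.41. All arrays of both doses lay above all vehicle arrays. Cd36 rose by 0.72 ± 0.19 at 60 mg/kg (1.65-fold, limma adjusted p = 0.0230) and by 1.14 ± 0.19 at 120 mg/kg (2.21-fold, adjusted p = 8.91e-05). The call at 60 mg/kg was lost without vehicle replicate 2 (adjusted p = 0.0795) or without 60 mg/kg replicate 1 (adjusted p = 0.0838).

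Aqp7, the aquaglyceroporin that carries glycerol released from stored fat, was the only member called at 20, 60 and 120 mg/kg of DMPT. Its vehicle values were 2.80, 3.06, 3.69, 3.96 and 4.10. The arrays given 20 mg/kg read 4.02, 4.48, 4.54, 4.62 and 4.87. The next dose gave 4.13, 4.38, 4.41, 4.52 and 4.87, and the highest 4.42, 4.45, 4.49, 4.64 and 4.65. Only the lowest array at 20 mg/kg fell within the vehicle range. The changes were 0.99 ± 0.22 (limma adjusted p = 0.00894), 0.94 ± 0.22 (adjusted p = 0.00682) and 1.01 ± 0.22 (2.02-fold, adjusted p = 0.00189), a plateau with no called step. The vehicle group had an SD of 0.57 and the 120 mg/kg group one of 0.11. Without the narrow arrays the change at 60 mg/kg was 0.94 with an adjusted p of 0.0502.

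With p-toluidine, Aqp7 values were 2.62, 2.85, 3.03, 3.06 and 3.71 in vehicle, 3.41, 3.57, 3.71, 3.99 and 4.23 at 20 mg/kg, 3.90, 4.18, 4.29, 4.48 and 4.73 at 60 mg/kg, and 3.80, 3.89, 3.92, 3.98 and 4.93 at 120 mg/kg. The groups at 60 and 120 mg/kg lay wholly above vehicle, and the highest vehicle array overlapped the group at 20 mg/kg. Aqp7 rose by 1.26 ± 0.20 at 60 mg/kg (2.40-fold, limma adjusted p = 0.000177) and by 1.05 ± 0.20 at 120 mg/kg (2.07-fold, adjusted p = 0.000534). At 20 mg/kg the change was 0.73 ± 0.20 with an adjusted p of 0.0857. It was called there without vehicle replicate 5 (adjusted p = 0.0254), with array weights (0.0326) and with the replicate number as a block (0.0321). The probe set is of moderate brightness, with brightness percentiles of 58.2 on the DMPT arrays and 61.8 on the p-toluidine arrays.

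Cpt1a, the outer membrane carnitine palmitoyltransferase that gates entry of long-chain fatty acids into mitochondria, showed small rises at the middle doses of DMPT. Its values were 9.29, 9.48, 9.55, 9.59 and 9.67 in vehicle, 9.69, 9.80, 9.83, 9.91 and 10.04 at 20 mg/kg, and 9.72, 9.81, 9.93, 9.98 and 10.02 at 60 mg/kg. Both dosed groups lay wholly above vehicle. The rises were 0.34 ± 0.09 (1.26-fold, limma adjusted p = 0.0419) and 0.38 ± 0.09 (1.30-fold, adjusted p = 0.0115), and the change at 120 mg/kg was 0.24 ± 0.09 (adjusted p = 0.102). The second probe set of Cpt1a changed by 0.36 ± 0.13 at 20 mg/kg (adjusted p = 0.161), 0.23 ± 0.13 at 60 mg/kg (adjusted p = 0.385) and −0.06 ± 0.13 at 120 mg/kg (adjusted p = 0.873), and passed at none of them. With p-toluidine it changed by 0.70 ± 0.24, 0.71 ± 0.24 and 0.43 ± 0.24 at the upper 3 doses (adjusted p = 0.194, 0.0928 and 0.298).

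The call for Cpt1a at 20 mg/kg of DMPT held in 2 of the 10 fits that left out 1 array. Its adjusted p was 0.0555, 0.0628, 0.0829 and 0.129 without vehicle replicates 1, 2, 4 and 5, and 0.0661, 0.0966, 0.123 and 0.0670 without 20 mg/kg replicates 1, 2, 3 and 4. It was 0.0536 with arrays centred on their medians and 0.0793 with the beta-actin covariate. With the mean of both probe sets in place of the brighter one the adjusted p was 0.0599 at 20 mg/kg and 0.0771 at 60 mg/kg. At 120 mg/kg the change was called with quantile normalization over all arrays (0.27, adjusted p = 0.0356). With p-toluidine the vehicle arrays of Cpt1a spread from 7.92 to 9.30 and no dose was called. The largest change there was 0.56 ± 0.18 at 60 mg/kg (limma adjusted p = 0.0670), which was called without vehicle replicate 5 (adjusted p = 0.0132), with array weights (0.0355) and among the brighter probe sets alone (0.0435).

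Ehhadh, the bifunctional enzyme of peroxisomal beta-oxidation, was higher at 20 mg/kg of both chemicals, and its DMPT values were lower again at 120 mg/kg. With DMPT its values were 9.47, 9.54, 9.66, 9.91 and 10.04 in vehicle, 9.85, 10.31, 10.42, 10.55 and 10.68 at 20 mg/kg, and 9.65, 9.77, 9.82, 9.85 and 9.96 at 120 mg/kg. At 20 mg/kg 4 of 5 arrays exceeded every vehicle array, while at 120 mg/kg all 5 lay within the vehicle range. Ehhadh rose by 0.64 ± 0.16 at 20 mg/kg (1.56-fold, limma adjusted p = 0.0291). It changed by 0.33 ± 0.16 at 60 mg/kg (adjusted p = 0.292) and by 0.09 ± 0.16 at 120 mg/kg (adjusted p = 0.839). The steps from 20 to 60 and from 60 to 120 mg/kg were not called. Without vehicle replicates 1, 2 and 4 in turn the adjusted p at 20 mg/kg was 0.0611, 0.0826 and 0.0749, and without 20 mg/kg replicates 2, 4 and 5 it was 0.0978, 0.0683 and 0.0754. It was 0.0706 with the beta-actin covariate and 0.0528 with a trended, robust variance.

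With p-toluidine Ehhadh values were 8.72, 8.79, 9.21, 9.24 and 9.51 in vehicle, 9.46, 9.70, 9.77, 9.85 and 10.05 at 20 mg/kg, 9.57, 9.64, 9.90, 9.94 and 10.10 at 60 mg/kg, and 9.01, 9.56, 9.63, 9.65 and 10.19 at 120 mg/kg. Only the group at 60 mg/kg lay wholly above vehicle. Ehhadh rose by 0.67 ± 0.15 (limma adjusted p = 0.0268), 0.73 ± 0.15 (1.66-fold, adjusted p = 0.00328) and 0.51 ± 0.15 (adjusted p = 0.0263) at these doses. The call at 60 mg/kg held in every fit that left out 1 array. At 20 mg/kg the adjusted p was 0.0992 and 0.0834 without vehicle replicates 2 and 3, and 0.0694, 0.0906, 0.0518 and 0.0523 without 20 mg/kg replicates 1, 2, 3 and 5. At 120 mg/kg it was 0.0986 and 0.0859 without vehicle replicates 2 and 3, 0.125 and 0.0503 without 120 mg/kg replicates 4 and 5, and 0.0676 with the beta-actin covariate. In fits of only the arrays compared it was 0.0599 at 20 mg/kg and 0.112 at 120 mg/kg.

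Cyp4a1, a cytochrome P450 that hydroxylates fatty acids at the omega end and a classical marker of PPARA activation in rat liver, rose at no dose. With p-toluidine its values were 9.59, 9.60, 9.63, 9.72 and 9.89 in vehicle and 8.59, 9.17, 9.38, 9.41 and 9.49 at 120 mg/kg. All dosed arrays lay below all vehicle arrays. Cyp4a1 fell by 0.48 on the log2 scale, with an SE of 0.14 (limma adjusted p = 0.0242). The call was lost without vehicle replicate 5 (adjusted p = 0.0650), without 120 mg/kg replicate 5 (adjusted p = 0.119) and with the beta-actin covariate (adjusted p = 0.109). With DMPT values were 9.77, 9.80, 10.10, 10.33 and 10.50 in vehicle and 9.58, 9.72, 9.79, 9.99 and 10.18 at 120 mg/kg, which overlap. The change was −0.25 ± 0.16 (adjusted p = 0.403, 95% interval −0.58 to 0.08). The probe set may also bind close relatives in the Cyp4a family, which was not tested.

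Acot1, a cytosolic thioesterase that frees fatty acids from their coenzyme A esters, had the largest change of the members at 120 mg/kg of each chemical. Its DMPT values were 1.90, 1.96, 2.65, 3.43 and 3.62 in vehicle and 3.44, 4.20, 4.68, 4.87 and 5.08 at 120 mg/kg, with 1 dosed array inside the vehicle range. Acot1 rose by 1.74 ± 0.49 (3.35-fold, limma adjusted p = 0.0200). Its p-toluidine values were 1.88, 1.95, 2.03, 2.23 and 2.26 in vehicle and 3.71, 3.97, 4.03, 4.05 and 4.08 at 120 mg/kg, with no overlap. There it rose by 1.90 ± 0.32 (3.72-fold, adjusted p = 9.32e-05).

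The DMPT call for Acot1 was lost without vehicle replicate 2 (adjusted p = 0.0603), vehicle replicate 4 (0.0656) or 120 mg/kg replicate 5 (0.0573), without the narrow arrays (0.0514) and with the beta-actin covariate (change 1.27, adjusted p = 0.126). The p-toluidine call held in every fit that left out 1 array and in all 9 other settings run for it. At 60 mg/kg single arrays stood high: 1 DMPT array was at 5.49 with the others from 2.80 to 3.28, and 1 p-toluidine array was at 4.93 with the others from 2.09 to 3.09. The changes at that dose were 0.81 ± 0.49 (adjusted p = 0.433) and 0.88 ± 0.32 (adjusted p = 0.124), and the second was called without 60 mg/kg replicate 3 of p-toluidine (adjusted p = 0.0483). The Acot1 probe set is dim, with brightness percentiles of 43.7 and 46.2, and may also bind its close relatives, which was not tested.

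Pdk4, the kinase that switches off pyruvate dehydrogenase and so spares glucose, rose at the upper doses of DMPT and was called at no dose of p-toluidine. Its DMPT values were 7.75, 7.80, 7.94, 8.24 and 8.28 in vehicle, 8.46, 8.54, 8.85, 8.88 and 9.39 at 60 mg/kg, and 8.31, 8.40, 8.80, 9.17 and 9.18 at 120 mg/kg. Both dosed groups lay wholly above vehicle, at 120 mg/kg by a narrow gap. The rises were 0.82 ± 0.22 (1.77-fold, limma adjusted p = 0.0215) and 0.76 ± 0.22 (1.70-fold, adjusted p = 0.0219). The second probe set of Pdk4 changed by 0.69 ± 0.22 (adjusted p = 0.0675) and 0.68 ± 0.22 (adjusted p = 0.0504). At 60 mg/kg the adjusted p was 0.0586 and 0.0563 without vehicle replicates 1 and 2, 0.0877 without 60 mg/kg replicate 3 and 0.0969 without the narrow arrays. At 120 mg/kg it was 0.0641 and 0.0545 without vehicle replicates 1 and 2, and 0.0770 and 0.0653 without 120 mg/kg replicates 1 and 3.

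With p-toluidine Pdk4 values were 7.02, 7.06, 7.50, 7.59 and 7.77 in vehicle and 6.99, 7.51, 7.97, 8.13 and 8.41 at 120 mg/kg, which overlap widely. The changes were 0.51 ± 0.25 at 60 mg/kg (limma adjusted p = 0.331) and 0.41 ± 0.25 at 120 mg/kg (adjusted p = 0.368). The difference between the chemicals in the response of Pdk4 was itself tested and not called (0.35 at 120 mg/kg, 95% interval −0.36 to 1.06).

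Angptl4, a secreted inhibitor of lipoprotein lipase that rises in fasting, was called at no dose. With DMPT it changed by −0.17, 0.25, 0.32, 0.26 and 0.11 (SE 0.15 each) from the lowest to the highest dose, and with p-toluidine by −0.05, −0.29, −0.27, 0.21 and −0.10 (SE 0.22 each). The change at 20 mg/kg of DMPT had a 95% interval of 0.01 to 0.64 (unadjusted p = 0.0453, limma adjusted p = 0.324). Its DMPT values were 7.28, 7.63, 7.69, 7.73 and 7.79 in vehicle and 7.41, 7.55, 7.75, 7.82 and 8.13 at 120 mg/kg. Its p-toluidine values were 6.94, 7.37, 7.46, 7.59 and 7.69 in vehicle and 6.73, 7.15, 7.33, 7.60 and 7.73 at 120 mg/kg. The groups overlapped in both cases. The changes at 120 mg/kg were 0.11 ± 0.15 (95% interval −0.21 to 0.42, limma adjusted p = 0.774) and −0.10 ± 0.22 (interval −0.54 to 0.34, adjusted p = 0.850). The intervals reached up to 0.64 at the other doses of DMPT and 0.65 at those of p-toluidine.

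Members whose 5 dosed arrays lay wholly on 1 side of the 5 vehicle arrays numbered 1, 3 and 2 of 8 at 20, 60 and 120 mg/kg of DMPT, where 5.45%, 5.02% and 8.55% of all probe sets did so. With p-toluidine they numbered 0, 3 and 4, against 2.75%, 4.37% and 8.29% of all probe sets. At 1 and 6 mg/kg no member did, where 1.23% and 2.03% of all probe sets did with DMPT and 0.983% and 1.62% with p-toluidine. Over the whole dose series, a slope on the rank of the dose was called for 5 members with DMPT, all upward: Cd36 (0.23 ± 0.05 per dose rank), Aqp7 (0.23 ± 0.04), Cpt1a (0.07 ± 0.02), Acot1 (0.32 ± 0.09) and Pdk4 (0.15 ± 0.04). With p-toluidine Cd36 (0.22 ± 0.03), Aqp7 (0.25 ± 0.04), Cpt1a (0.10 ± 0.03), Ehhadh (0.13 ± 0.03) and Acot1 (0.36 ± 0.07) rose and Cyp4a1 (−0.08 ± 0.02) fell. Slopes were called for 14.9% of all probe sets with DMPT (6.3% up, 8.58% down) and 14.5% with p-toluidine (7.43% up, 7.05% down). On the dose in mg/kg in place of its rank, Cpt1a was called with neither chemical (adjusted p = 0.169 and 0.156) and Ehhadh not with p-toluidine (adjusted p = 0.0509). By dose rank, the slope of the second probe set of Cpt1a was called with neither chemical. It was 0.04 ± 0.03 with DMPT (limma adjusted p = 0.406) and 0.10 ± 0.04 with p-toluidine (adjusted p = 0.140). The second probe set of Pdk4 rose with DMPT (0.16 ± 0.04, adjusted p = 0.00252).

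Neighbouring doses from 1 mg/kg upward were then compared, and limma called 0 of 8 members at each of the 8 steps. At an unadjusted p below 0.05 there were 2, 1, 1 and 0 members at the steps to 6, 20, 60 and 120 mg/kg of DMPT and 0, 3, 2 and 2 with p-toluidine. Of the 31042 probe sets 2563, 3264, 3703 and 2522 passed that unadjusted threshold with DMPT and 1463, 1637, 2392 and 3069 with p-toluidine. Among all probe sets 0%, 0.0161%, 0.11% and 0.174% were called at these steps of DMPT and 0%, 0.00322%, 0.106% and 0.838% at those of p-toluidine. The largest step of a member was that of Acot1 from 60 to 120 mg/kg of p-toluidine, 1.02 ± 0.32 (adjusted p = 0.152), and the order of neighbouring doses is therefore a description.

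The methyl groups on the nitrogen are the structural difference between the chemicals, and the response of each member (dose minus own vehicle) was compared between them at the 5 matched doses. Limma called 0 of 8 members at every dose, where 0% of probe sets were called at 1, 6, 20 and 60 mg/kg and 0.00644% at 120 mg/kg. Only Angptl4 at 20 mg/kg had an unadjusted p below 0.05 (0.59 ± 0.28, adjusted p = 0.647), as did 2280 of the 31042 probe sets at that dose. At 120 mg/kg Cd36 responses differed by 0.01 (95% interval −0.71 to 0.72), those of Aqp7 by −0.04 (−0.66 to 0.58) and those of Cpt1a by −0.04 (−0.46 to 0.38). The response of Ehhadh was 0.43 lower with DMPT (−0.43, interval −0.90 to 0.04) and that of Pdk4 0.35 higher (−0.36 to 1.06). Acot1 differed by −0.15 (−1.40 to 1.09), Cyp4a1 by 0.23 (−0.22 to 0.67) and Angptl4 by 0.21 (−0.35 to 0.76). The narrowest of these intervals, that of Cpt1a, still reaches −0.46, so the tests do not show that the chemicals act alike.

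**Figure D2:**
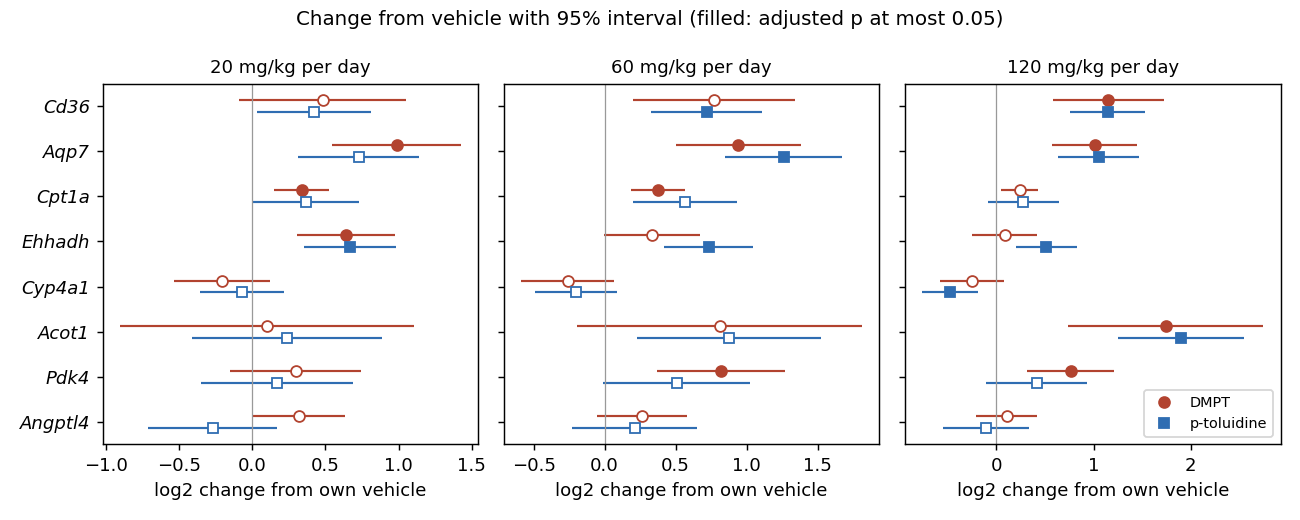
Log2 change from the own vehicle group (x axis) with its 95% interval for the 8 genes (y axis) at 20, 60 and 120 mg/kg per day, with circles for DMPT and squares for p-toluidine, filled where the adjusted p was at most 0.05. The intervals of the chemicals overlap for each gene at each dose, and those of Acot1 are the widest.

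Within groups, some members varied together from array to array. Each array's deviation from its group mean was correlated over the 30 arrays of a chemical for all 28 pairs of members, 56 relations in all, with 100000 permutations within groups and adjustment over the 56. Cd36 and Ehhadh had r = 0.86 with DMPT (Spearman rho 0.78, permutation p = 2e-05, adjusted p = 0.00056) and r = 0.58 with p-toluidine (rho 0.64, permutation p = 0.00014, adjusted p = 0.00196). Without the 2 arrays farthest from the median of Cd36 these were 0.82 and 0.57, and r was 0.85 for DMPT without the narrow arrays. With DMPT, Ehhadh and Cyp4a1 had r = 0.77 (rho 0.725, permutation p = 2e-05, adjusted p = 0.00056, 0.73 without the 2 farthest) and Cd36 and Cyp4a1 had r = 0.75 (rho 0.73, permutation p = 4e-05, adjusted p = 0.000747, 0.71 without the 2 farthest). With p-toluidine these pairs had r = 0.27 (adjusted p = 0.409) and r = 0.35 (adjusted p = 0.204), by the same permutation test. With p-toluidine, Pdk4 and Angptl4 had r = 0.63 (rho 0.67, permutation p = 0.00073, adjusted p = 0.00818, 0.57 without the 2 farthest), and with DMPT r = 0.43 (rho 0.46, permutation p = 0.0447, adjusted p = 0.158). Differences in r between the chemicals were not tested. In all 5 pairs passed with DMPT and 4 with p-toluidine, all positive. Of the 28 pairs 21 and 25 had a positive r, with a median of 0.31 and 0.27. Over all 101054436 pairs of the 14217 genes, dim ones included, 50.6% and 50.4% had a positive r, with a median of 0.004 and 0.003. The permutation test was not run on all pairs, so the share of them that would pass is not known. Arrays of a chemical share their normalization, and which of them come from cage mates is not labelled.

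**Figure D3:**
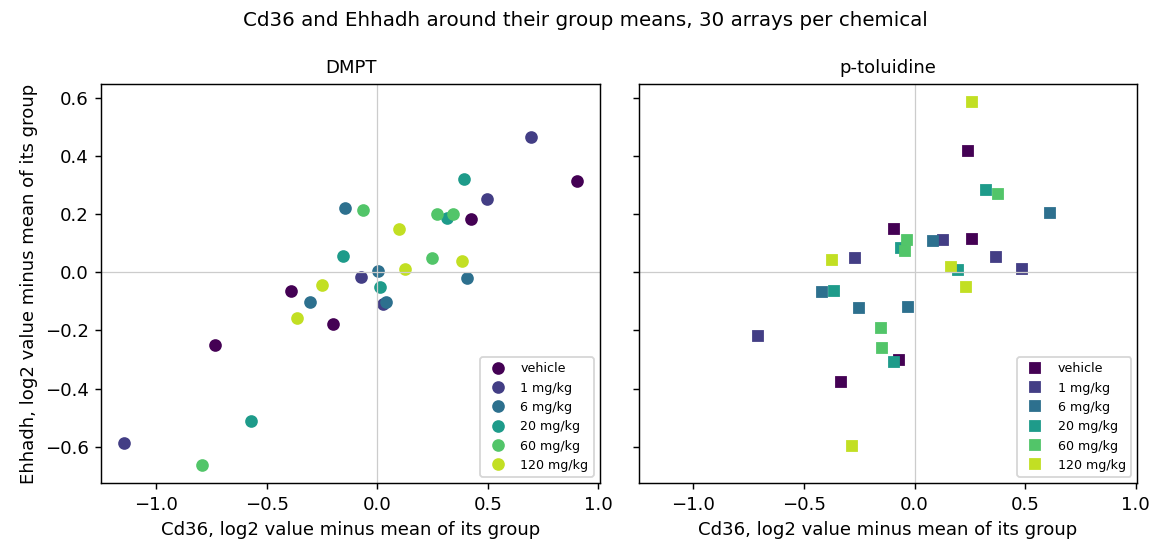
Each array's log2 value of Ehhadh (y axis) against that of Cd36 (x axis), both minus the mean of the array's group, for 30 DMPT arrays (left) and 30 p-toluidine arrays (right), coloured by dose. The points rise together over the 30 arrays of each panel (r = 0.86 and 0.58), and r was not computed by dose.

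Outside the members, the gene whose pattern over the arrays was most like each was found among 13970 genes by the mean of the Pearson correlations over the 30 arrays of each chemical, which share the dose series. For Cd36 it was Adh4, an alcohol dehydrogenase (mean r 0.87), and for Aqp7 it was Abcc3, an exporter of conjugates (0.86). For Ehhadh it was Decr1, a dienoyl-CoA reductase of fatty acid oxidation (0.80), and for Acot1 it was Slc66a3 (0.81). For Cpt1a it was Adcy10, the soluble adenylyl cyclase (0.73), for Pdk4 Foxa2, a liver transcription factor (0.71), for Cyp4a1 Crot, the peroxisomal carnitine octanoyltransferase (0.67), and for Angptl4 Vgll4 (0.67). These are descriptions of the best of many genes and carry no test.

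The rest of the pathway was covered by 12 lists of genes by role, with 153 of 170 genes on the array and no member among them. At 120 mg/kg of DMPT 20 rose and 25 fell, 29.4% of the 153, and with p-toluidine 21 rose and 29 fell, 32.7%. Of all 14217 genes 12.7% and 14.8% were called in these comparisons. The median change of the 153 was −0.03 and −0.02. At 60 mg/kg 12 rose and 10 fell with DMPT and 21 rose and 9 fell with p-toluidine, where 7.31% and 6.6% of all genes were called. The numbers at 20 mg/kg were 8 and 5, and 8 and 0, where 3.33% and 1.08% of all genes were called. Without the narrow arrays, a setting added after the data were seen, 16 rose and 20 fell at 120 mg/kg of DMPT (10.5% of all genes called), and 12 rose and 6 fell at 60 mg/kg (5.28%).

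The lists are given at 120 mg/kg. Among the 10 genes of fatty acid uptake and binding 1 rose and 2 fell with each chemical. The bile acid and fatty acid ligase Slc27a5 changed by −0.94 ± 0.13 with DMPT and −1.61 ± 0.15 with p-toluidine, and the fatty acid binding protein Fabp2 by 0.61 ± 0.17 and 0.92 ± 0.16, all 4 called. Of 13 genes of activation and thioesterases 1 rose and 1 fell with DMPT and 2 rose and 3 fell with p-toluidine. The acyl-CoA synthetase Acsl5 was at −0.54 ± 0.11 and −0.46 ± 0.12, called in both. Acot2, the mitochondrial relative of Acot1, rose by 0.54 ± 0.11 with p-toluidine, and Acsm3 was at −0.32 ± 0.13 with DMPT (limma adjusted p = 0.133).

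In mitochondrial beta-oxidation 2 of 18 genes rose and 5 fell at 120 mg/kg of each chemical, with medians of −0.06 and −0.02. With 60 mg/kg 2 rose and 1 fell for DMPT and 3 rose and 0 fell for p-toluidine (medians −0.01 and 0.08), and at 20 mg/kg 1 rose and 0 fell with each (0.07 and 0.13). At the highest dose Acadvl, the very long-chain acyl-CoA dehydrogenase, fell with DMPT (−0.35 ± 0.06) and with p-toluidine (−0.49 ± 0.06), while the thiolase Acaa2 rose with DMPT (0.36 ± 0.08). Cpt1b, the muscle relative of Cpt1a, rose by 0.96 ± 0.18 with p-toluidine. In peroxisomes 3 of 16 genes rose and 2 fell with each chemical. Crot was at −1.17 ± 0.15 with DMPT and −1.45 ± 0.18 with p-toluidine, and the peroxisome assembly factor Pex19 at 0.41 ± 0.09 and 0.40 ± 0.09, all 4 called.

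In omega-oxidation 4 of 11 genes rose and 1 fell with DMPT and 5 rose and 1 fell with p-toluidine. The genes that rose include alcohol dehydrogenases that also serve other substrates: Adh4 rose by 0.94 ± 0.24 and 1.12 ± 0.26. Cyp4f5 rose with DMPT (0.50 ± 0.09), and Cyp4a3, a close relative of Cyp4a1, fell with p-toluidine (−0.86 ± 0.08). Of 4 ketone body genes 3 fell with each chemical, among them the dehydrogenase Bdh1 (−0.41 ± 0.09 and −0.36 ± 0.08), the thiolase Acat1 with DMPT (−0.30 ± 0.08) and the carrier Slc16a1 with p-toluidine (−0.37 ± 0.10). Around pyruvate dehydrogenase, 1 of 11 genes rose and 3 fell with DMPT and 2 fell with p-toluidine: Pdhx was at −0.31 ± 0.07 and −0.29 ± 0.07, Pdk1 at −0.28 ± 0.08 with DMPT, and Pdhb at −0.21 ± 0.06 with p-toluidine.

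Of 17 genes of lipid droplets and lipolysis 3 rose and 2 fell with each chemical. Cidea, a lipid droplet fusion protein, rose by 1.61 ± 0.20 and 1.63 ± 0.26, and the lipase relative Pnpla3 was at 0.69 ± 0.38 (limma adjusted p = 0.302) and 1.23 ± 0.27 (adjusted p = 0.00205). On the lipoprotein lipase axis of Angptl4, 2 of 8 genes fell with each chemical and 1 rose with p-toluidine. The hepatic lipase Lipc was at −0.31 ± 0.08 and −0.61 ± 0.10, and Apoc3, an apolipoprotein that slows lipolysis, at −0.30 ± 0.05 and −0.58 ± 0.07, all 4 called. Of 6 genes of glycerol handling beside Aqp7, limma called 0 with DMPT (2 at an unadjusted p below 0.05) and 2 fell with p-toluidine. Glycerol kinase Gk was at −0.26 ± 0.09 (adjusted p = 0.0614) and −0.40 ± 0.11 (adjusted p = 0.0170), and Gpd2 at −0.34 ± 0.13 (adjusted p = 0.0825) and −0.36 ± 0.17 (adjusted p = 0.186).

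Among 16 regulators and partners of PPAR receptors 1 rose and 2 fell with DMPT and 3 fell with p-toluidine. The fibroblast growth factor receptor Fgfr4 was at −0.60 ± 0.08 and −0.58 ± 0.08, called in both. Ppargc1a (0.38 ± 0.14 with DMPT, limma adjusted p = 0.0905) and Fgf21 (0.58 ± 0.66 with p-toluidine, adjusted p = 0.690) were not called. Ppara itself, chosen after its values were seen, was at −0.30 ± 0.12 (adjusted p = 0.131) and −0.01 ± 0.11 (adjusted p = 0.974). Of 23 other textbook targets 4 rose and 2 fell with each chemical. Cyp2j4 rose with DMPT (0.63 ± 0.08) and the phosphatidate phosphatase Lpin2 with p-toluidine (0.67 ± 0.13), while Cyp7a1 (0.53 ± 0.32 with DMPT, adjusted p = 0.360) and Trib3 (0.57 ± 0.49 with p-toluidine, adjusted p = 0.556) were not called.

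**Figure D4:**
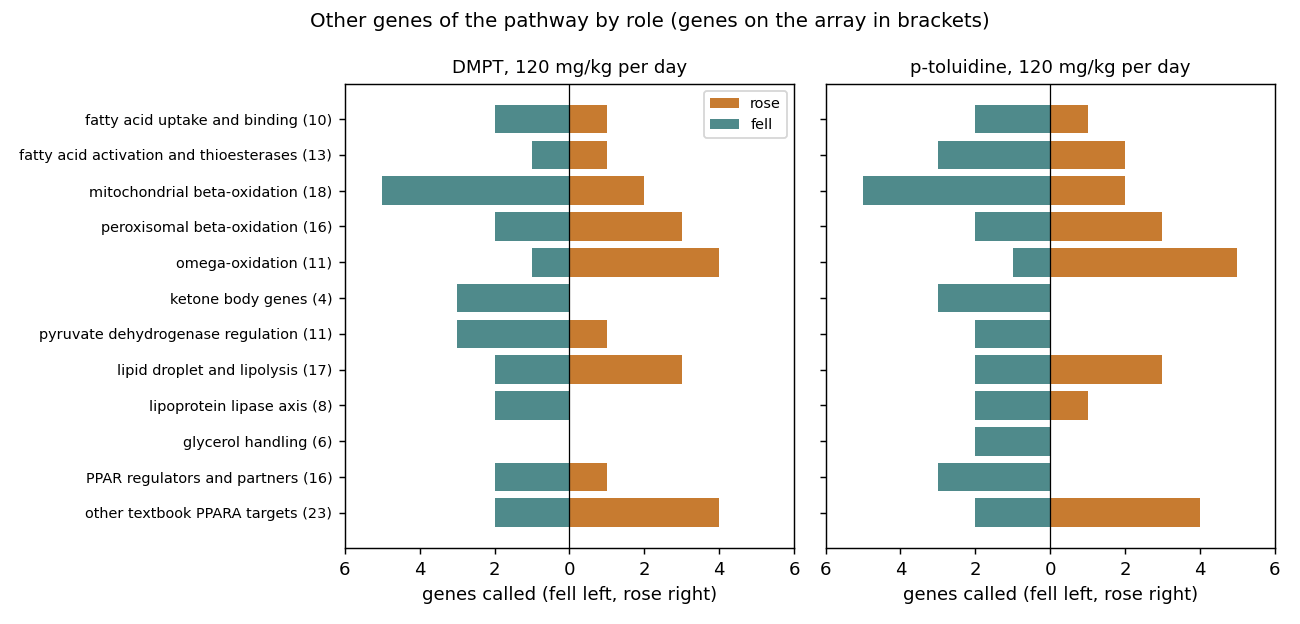
Number of genes called at 120 mg/kg per day (x axis, fell to the left, rose to the right) in each of the 12 lists by role (y axis, genes on the array in brackets) for DMPT and p-toluidine. Every list with calls has genes that fell, and mitochondrial beta-oxidation has 5 that fell against 2 that rose with each chemical.

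Markers of other cells that could add to these genes were read in the same arrays. Cd36, Aqp7 and Angptl4 are also genes of fat and endothelium, and Pdk4 of muscle. Of the liver's own markers, albumin stood at 13.8 in the DMPT vehicle arrays, the top brightness percentile. Of 9 adipocyte markers 1 rose at 120 mg/kg of each chemical, Cidea, which is also in the lipid droplet list. Only part of the list was dim. Adipoq, Lep and Plin1 were at 1.83, 2.05 and 2.68 in DMPT vehicle. Like Slc2a4 and Adrb3, they had brightness percentiles of 36.1 or less. Lipe and Cfd stood at 6.05 and 5.67 there, with percentiles of 81.7 and 77.4. The percentiles of Cidea and Fabp4 were 76.2 and 44.8. The summed level of this list, on a log2 scale, ran from 7.29 to 7.58 in DMPT vehicle and from 7.74 to 8.04 at 120 mg/kg, and from 6.87 to 6.95 and from 7.12 to 7.37 with p-toluidine. The sum includes Cidea, which rose by 1.61 and 1.63, and a sum without Cidea was not taken. A higher sum therefore does not show a rise of the list as a whole. Of 10 endothelial markers limma called 0 with either chemical (2 with DMPT and 1 with p-toluidine at an unadjusted p below 0.05). Their summed level ran from 9.56 to 10.34 in DMPT vehicle and from 9.93 to 10.20 at 120 mg/kg, and from 9.45 to 9.70 and from 9.41 to 9.53 with p-toluidine. Of 10 muscle markers, Myh1 rose with p-toluidine (0.38 ± 0.11), and the summed level ran from 9.51 to 9.75 and from 9.69 to 9.92 with DMPT and from 9.03 to 9.50 and from 9.46 to 9.70 with p-toluidine. Myh1 stood at 9.57 and 9.16 in the vehicle groups of DMPT and p-toluidine, close to this sum. Ckm, the next brightest of the list, was at 2.40 and 1.70, so the sum follows Myh1 and not the list as a whole. Of 8 Kupffer cell markers 1 fell with p-toluidine, Cd5l (−0.49 ± 0.13), of 5 erythroid markers 1 rose with DMPT and 2 with p-toluidine, and of 9 hepatocyte markers 2 fell with DMPT and 1 with p-toluidine. Of all 14217 genes 12.7% and 14.8% were called at 120 mg/kg. The Kupffer sum ran from 9.74 to 9.92 in p-toluidine vehicle and from 9.56 to 9.68 at 120 mg/kg. With DMPT it ran from 9.93 to 10.49 and from 10.17 to 10.65. The hepatocyte sum ran from 15.41 to 15.47 and from 15.34 to 15.38 with p-toluidine. With DMPT it ran from 15.61 to 15.69 and from 15.57 to 15.63. The erythroid sums overlapped vehicle with both chemicals. The part of these shifts in the members' changes was not tested.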

How the data were processed

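The authors deposited 1 value per probe set and array, taken here as log2 expression values. RMA (background correction, quantile normalization and summarization) is named without a version per the submitters' processing notes, with its settings and the build not given in the sources used here, and the values ran from 0.0507 to 13.9. The array sets of the chemicals differ in level and were fitted apart.

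Of 31099 probe sets, 57 controls were left out and 31042 tested without a filter. Platform annotation gave the gene names, brought up to date by gene ID with RefSeq's GRCr8 table: 20826 probe sets had 1 symbol, 436 several and 9780 none. Limma 3.58.1 in R 4.3.3 fitted 6 group means over the 30 arrays of a chemical, with each dose against its own vehicle, neighbouring doses and a slope on dose rank, and 12 group means over 60 arrays for the difference between chemicals. P-values were adjusted by Benjamini-Hochberg over all probe sets. The study names the ORIOGEN software, which was not used here. On simulated data, 100 of 31042 probe sets were changed by each of 0.5 and 1 on the log2 scale at 120 mg/kg alone. Of these, 76% and 98% were recovered with DMPT and 76% and 99% with p-toluidine.

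All 8 members are named, with the 2 genes per role list that changed most at 120 mg/kg of each chemical, called or not, and the gene most like each member. Members, lists and tests were chosen with earlier results of these data known. Errors are SE for changes and SD for means. Alternatives covered scaling, filtering, the arrays fitted, blocks, variance, array weights, narrow arrays (interquartile range over 3 MADs below the median), a beta-actin covariate, other probe sets and leaving out each array.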

Additional observations from a re-analysis of the deposited data

Results flagged for a closer look

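In 8 of the 96 groups of 5 arrays (8 members, 12 groups), 1 array lay apart from the other 4 by Dixon's test, 8.33% of the groups where chance flags about 1 in 20. For Acot1 these were 6 mg/kg of DMPT replicate 5 at 4.57 (the others 1.99 to 2.65), 60 mg/kg of DMPT replicate 2 at 5.49 (2.80 to 3.28) and 120 mg/kg of p-toluidine replicate 2 at 3.71 (3.97 to 4.08). For Cd36 it was 60 mg/kg of p-toluidine replicate 1 at 7.10 (6.57 to 6.69), and for Aqp7 120 mg/kg of p-toluidine replicate 5 at 4.93 (3.80 to 3.98). For Cpt1a it was 120 mg/kg of DMPT replicate 3 at 9.97 (9.65 to 9.74). For Ehhadh it was 60 mg/kg of DMPT replicate 5, an array of narrow spread, at 9.40 (10.11 to 10.27), and for Cyp4a1 20 mg/kg of DMPT replicate 1 at 9.25 (10.01 to 10.12). Replicate 5 of 60 mg/kg of DMPT was the lowest of its group in 5 of the 8 members, and replicate 1 of 20 mg/kg of DMPT in 6 of the 8. With p-toluidine, replicate 1 of 6 mg/kg was the highest of its group in 6 of the 8 members, replicate 2 of 20 mg/kg in 5 and vehicle replicate 5, which enters every comparison of that chemical, in 5; the causes were not tested.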

How the results depend on the processing

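No member's called change reversed its direction under any alternative. The count of members called at 20 mg/kg of p-toluidine was 1, and 2 with the replicate block, 2 with array weights and 0 with only the arrays compared. At 60 mg/kg of DMPT it was 3, and 1 without the narrow arrays. At 20 mg/kg of DMPT it was 3, and at 120 mg/kg of p-toluidine 5, and with the beta-actin covariate these were 1 and 3. With 1 array left out the count ran from 1 to 3 at 20 mg/kg and from 2 to 4 at 120 mg/kg of DMPT, and from 0 to 2 at 20 mg/kg and from 3 to 5 at 120 mg/kg of p-toluidine. Values that gained or lost a call in single members stand beside each result; the causes were not tested. Over all single values, 38 calls were lost and 5 gained with 1 array left out, and 21 were lost and 5 gained under other settings. The 1237 and 1267 values that kept their side of the threshold include results not called to begin with, which had no call to lose. These totals therefore give no rate of lost calls. At 20 mg/kg the call held in 10 of 10 fits without 1 array for Aqp7 with DMPT. It held in 2 of 10 for Cpt1a with DMPT and in 4 of 10 for Ehhadh with each chemical. Arrays were not left out in turn for the slopes.

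Replicate numbers did not pair the arrays: deviations of same-numbered arrays correlated at −0.001 (DMPT) and −0.004 (p-toluidine) on average, and 4 and 2 of 30 arrays were nearest to their own number. The replicate block changed no other member's call than that of Aqp7 at 20 mg/kg of p-toluidine (adjusted p = 0.0321).

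Counts over all probe sets moved by over 1.5 times as follows. For 20 mg/kg of DMPT 810 became 1627 with array weights, with 472 to 499 without 1 of 3 arrays (vehicle replicate 3, 20 mg/kg replicates 2 and 4). For 60 mg/kg of DMPT 1613 became 899 with only the arrays compared. For 20 mg/kg of p-toluidine 244 became 394 among brighter probe sets, 408 with array weights and 133 with only the arrays compared, with 115 to 152 without 1 of 5 arrays (vehicle replicates 2 and 4, 20 mg/kg replicates 1, 2 and 3). For 60 mg/kg of p-toluidine 1400 became 734 with only the arrays compared. For 6 mg/kg of DMPT 52 became 93 with quantile normalization, 101 among brighter probe sets, 83 with trended variance, 115 with the covariate, 33 with median centring (8 of them higher, against 17 of 52 and 45 of 93 with quantile normalization) and 15 with only the arrays compared, with 18 to 73 without 1 array. For the difference at 20 mg/kg 0 became 39, and at 120 mg/kg 2 became 21, with only the arrays compared. The number called higher was 600 of 1613 at 60 mg/kg of DMPT, 695 of 1150 without the narrow arrays, 846 of 1753 with array weights and 604 of 1220 without replicate 3. At 20 mg/kg of DMPT it was 484 of 810, and 323 of 814 with the covariate.

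The filter on dim probe sets removed Acot1. With 5 arrays per group, changes of 0.5 on the log2 scale were recovered for 76% of simulated probe sets, so smaller changes of members can be missed. The simulation changed 100 probe sets by each size, at 120 mg/kg alone. In the data 9.8% and 10.7% of all 31042 probe sets were called at that dose. The recovered share depends on how many probe sets change, so 76% is not the share expected in any comparison here. The simulated probe sets were drawn at random, and members of wider spread can be missed at larger changes. Cd36 at 60 mg/kg of DMPT (0.77 ± 0.28) and Acot1 at 60 mg/kg of p-toluidine (0.88 ± 0.32) were not called. Dim probe sets understate folds, and values carry no counting error.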

Other observations

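The other pathway genes called already at 20 mg/kg, chosen after their values were seen, included both desaturases of polyunsaturated fatty acid synthesis. Fads1 rose by 0.49 ± 0.07 with DMPT (limma adjusted p = 0.000217) and by 0.45 ± 0.08 with p-toluidine (adjusted p = 0.00615). Fads2 rose by 0.66 ± 0.11 (adjusted p = 0.000523) and by 0.72 ± 0.12 (adjusted p = 0.0017), and the P450 Cyp2j4 by 0.55 ± 0.08 (adjusted p = 8.82e-05) and 0.40 ± 0.09 (adjusted p = 0.0268). Abhd5, the activator of adipose triglyceride lipase, rose by 0.56 ± 0.09 at 20 mg/kg of DMPT (adjusted p = 0.000475). The carnitine transferase Crot was at −0.60 ± 0.15 there (adjusted p = 0.0254) and at −1.10 ± 0.18 at 60 mg/kg of p-toluidine (adjusted p = 0.000209). Of the 153 other pathway genes 8 rose and 5 fell at 20 mg/kg of DMPT. With p-toluidine 8 rose and 0 fell at that dose, so Crot was not called lower there. Limma called 0 of the 17 genes of lipid droplets and lipolysis at 20 mg/kg of p-toluidine (5 at an unadjusted p below 0.05). The lipid droplet coat protein Plin2, a PPARA target that is abundant in fatty liver, was also chosen after its values were seen. It fell by 0.29 at 120 mg/kg of DMPT (SE 0.09, limma adjusted p = 0.0370) and by 0.56 at 120 mg/kg of p-toluidine (SE 0.08, adjusted p = 9.33e-06). Cidea, of the lipid droplet list, rose by 1.61 and 1.63 at the same dose.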
